A study of Mus musculus with 4 samples.

Results

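The genes described here encode the subunits of oxidative phosphorylation, the respiratory complexes I to IV and ATP synthase (complex V), in the urogenital sinus (UGS) of male mouse embryos. They were chosen by symbol from the 25819 rows of the deposited expression table, as the symbols that begin with *Nduf* followed by a, b, c, s or v and a digit, the 4 *Sdh* subunits a to d, and those that begin with *Uqcr*, *Cox4* to *Cox8* or *Atp5*. Of the 84 symbols found, *Cox6a2* was left out by the rule, and 83 remained: 37 of complex I, 4 of complex II, 7 of complex III, 18 of complex IV and 17 of complex V. At least 1 FPKM (a read number scaled to transcript length and to the library's mapped reads) in either library of a comparison was reached by 81 of the 83 in every comparison. The 2 others, *Cox7b2* and *Cox8c*, stayed below 1 FPKM in all 4 libraries.

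Complexes I and II feed electrons from NADH and succinate into the respiratory chain, complex III passes them to cytochrome c, and complex IV hands them to oxygen. Complexes I, III and IV pump protons across the inner mitochondrial membrane, and complex V uses the return of the protons to make ATP. Most subunits are encoded in the nucleus and expressed in nearly all tissues, most strongly in heart and muscle, a few complex IV subunits exist in muscle, testis or low-oxygen forms, and a small set is encoded in mitochondrial DNA.

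Whole UGS of Tbx18Gfp/Gfp embryos, in which both alleles of the transcription factor gene *Tbx18* are disrupted by a GFP knock-in, and of wild type embryos was profiled by RNA-Seq. The mice were of a B6C3-F1 hybrid background, and both genotypes were collected at E16.5 and at E18.5. Each of the 4 libraries held RNA pooled from 3 embryos of 1 genotype and stage, so there was 1 library per group, no replicate check, and no test, SD or p-value in any comparison. Whole UGS holds epithelium, mesenchyme, muscle, nerve and blood, and in such bulk samples fewer cells of a type and less RNA per cell cannot be told apart.

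The E18.5 wild type library stood apart from the others. Its column summed to 375826 FPKM against 460392 to 504136 in the other 3, and its depth, estimated from genes with a single read, was about 2.91e+07 mapped reads against 5.24e+07 to 6.4e+07. Among the 13644 genes that reached 1 FPKM in all libraries it was the lowest library in 64.1% and the highest in 22.1%. The markers of UGS epithelium and mesenchyme were all above 1 FPKM in every library, and *Tbx18* itself had 3.47 FPKM in E16.5 wild type, 2.504 in E16.5 Tbx18Gfp/Gfp, 3.16 in E18.5 wild type and 2.93 in E18.5 Tbx18Gfp/Gfp. The FPKM do not separate RNA of the targeted locus from that of an intact one. Values are given below in this order of the 4 libraries, and ratios are log2 of FPKM. Comparisons that use E18.5 wild type are followed by those that do not, namely genotypes at E16.5 and stages within Tbx18Gfp/Gfp.

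Oxidative phosphorylation genes were highly expressed in all libraries. The median level of the 83 genes was 72.3, 69.4, 43.5 and 82.5 FPKM, and their summed FPKM made up 1.79%, 1.64%, 1.66% and 1.85% of each column. Complex V had the highest median level in each library, from 100.1 FPKM in E18.5 wild type to 177.1 FPKM in E18.5 Tbx18Gfp/Gfp. Complex II had medians between 32.7 and 55.1 FPKM, with its membrane anchor *Sdhd* far below its other subunits at 6.96, 7.16, 2.93 and 9.26 FPKM. Of the 13 subunits encoded in mitochondrial DNA, 0 were found under the symbols searched, so only nuclear genes are described.

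**Figure D1:**
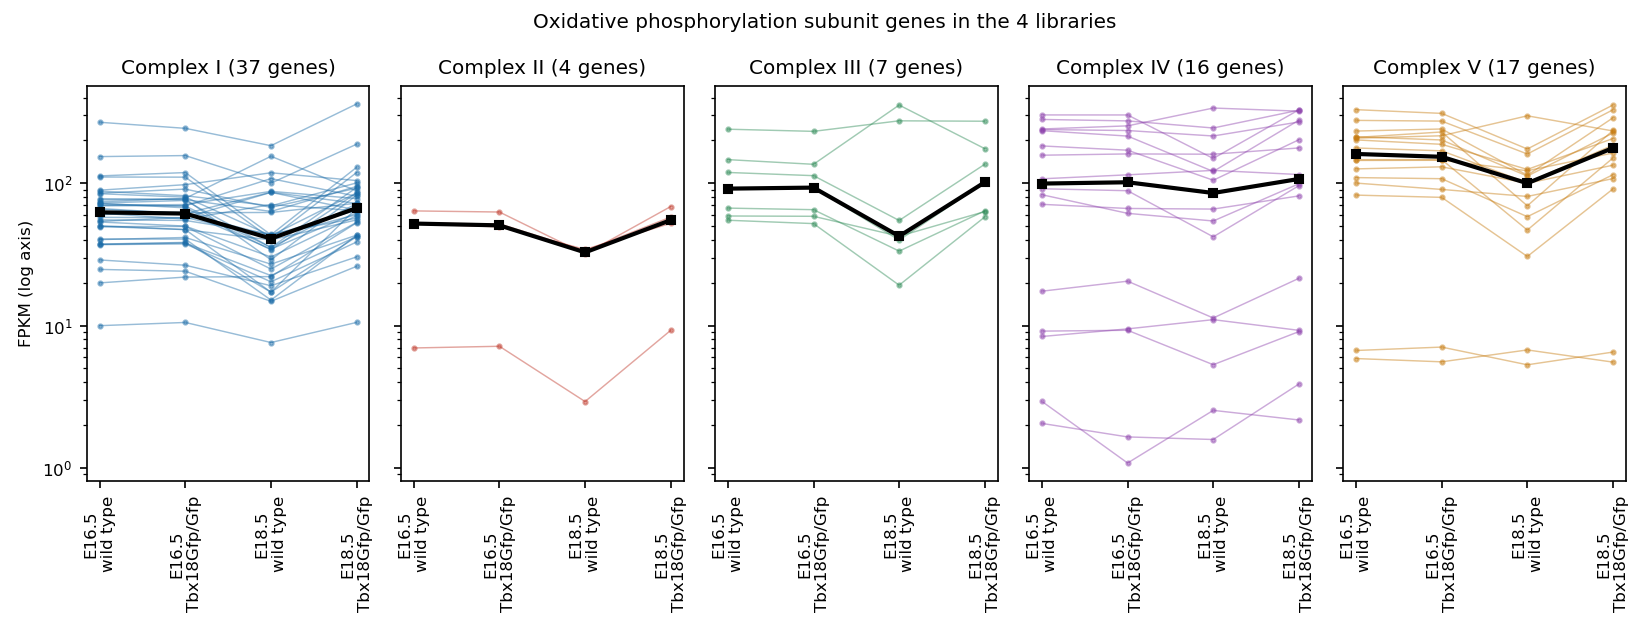
FPKM (log axis) of the 81 oxidative phosphorylation genes with at least 1 FPKM, by complex, in the 4 libraries. Each thin line is 1 gene and the black line joins the medians of the genes drawn. The E18.5 wild type library is the lowest of the 4 for 63 of the 81 genes and the highest for 14.

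E18.5 wild type was the lowest library for 63 of the 81 genes (64.1% of all genes) and the highest for 14 (22.1%). The count was 28 lowest and 7 highest of 37 in complex I, 4 and 0 of 4 in complex II, 5 and 2 of 7 in complex III, 11 and 3 of 16 in complex IV, and 15 and 2 of 17 in complex V. The other 3 libraries lay close together: the highest of them was a median of 1.13 times the lowest, which was also the median over all genes, and the range stayed under 1.2-fold in 61 of the 81 (70.4% of all genes).

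At E18.5, most oxidative phosphorylation genes had more FPKM in Tbx18Gfp/Gfp than in wild type UGS. Of the 81 genes, 66 were higher and 15 lower, where 69.5% of all genes were higher. The median log2 ratio was 0.83, against 0.30 for all 14733 genes. The 0.83 became 0.55 with the median of all genes at 1 FPKM in both libraries (0.29) taken off. A rise of at least 1.5-fold was seen in 49 (33.2% of all genes) and of at least 2-fold in 27 (15.1%). A fall of at least 1.5-fold was seen in 2, *Uqcrb* and *Ndufa12* (7.6% of all genes), and of at least 2-fold in *Uqcrb* alone (2.89%). With column sums made equal the split was 56 higher and 25 lower, and so was it with trends on transcript length and GC content subtracted. In that last setting 6 genes were at least 2-fold higher and 2 at least 2-fold lower. The shares of all genes were not computed in these settings, and 69.5% applies only to the values as deposited.

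All of these ratios have E18.5 wild type as their denominator. By complex, beside the 69.5% of all genes that were higher, the median log2 ratios were 0.81 (complex I, 30 of 37 higher), 0.95 (complex II, 4 of 4), 0.94 (complex III, 5 of 7), 0.59 (complex IV, 12 of 16) and 0.88 (complex V, 15 of 17). Complex IV had the smallest median. With the all-gene median of 0.29 taken off, which cannot change their order, the medians were 0.52, 0.66, 0.65, 0.30 and 0.59. Erythroid markers, whose summed FPKM was 2.66%, 3.96%, 1.01% and 3.43% of each column, were also higher in the mutant in 5 of 5, and smooth muscle markers, with 0.252%, 0.124%, 0.356% and 0.725%, in 8 of 8. Their part in the ratios of the oxidative phosphorylation genes was not tested.

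**Figure D2:**
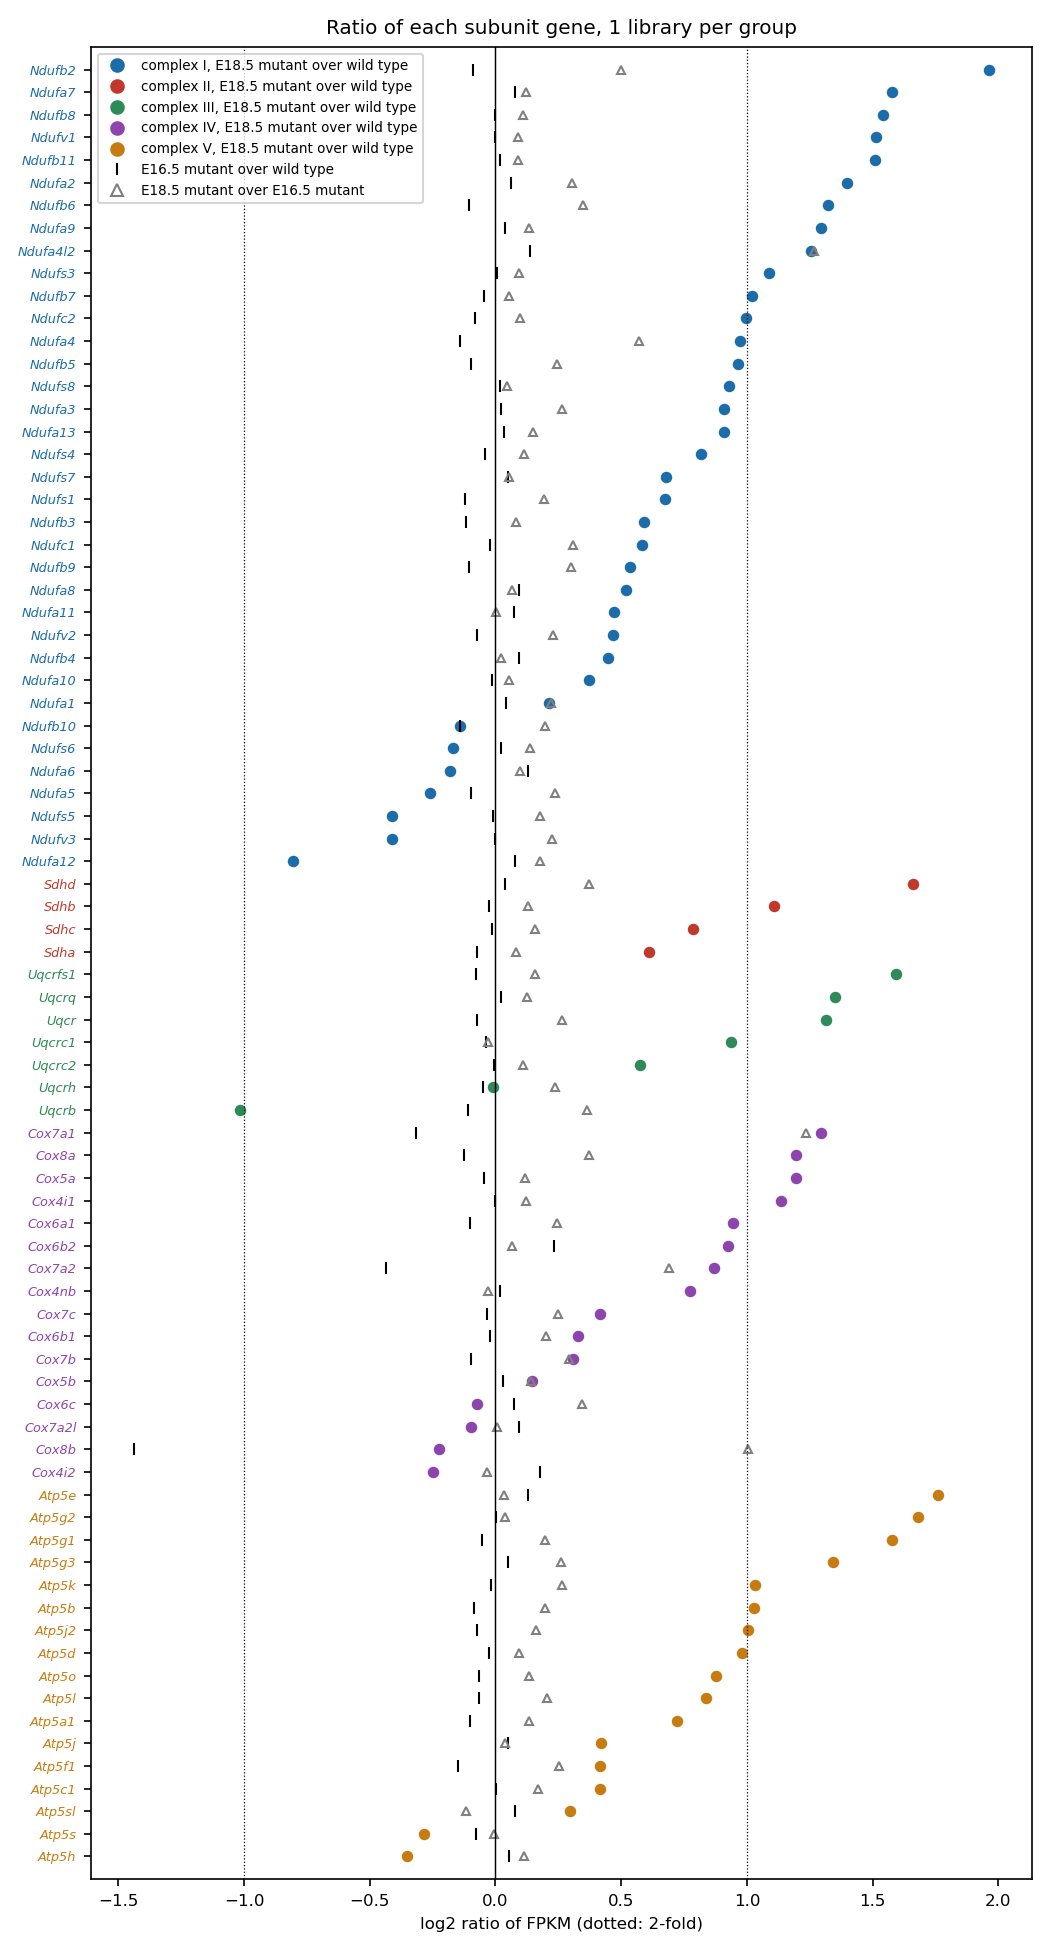
Log2 ratio of FPKM for each gene drawn (80 of the 81), ordered within complexes I to V by the E18.5 genotype ratio. Filled circles are E18.5 Tbx18Gfp/Gfp over wild type, ticks E16.5 Tbx18Gfp/Gfp over wild type, and open triangles E18.5 over E16.5 within Tbx18Gfp/Gfp. The circles run from -1.02 (*Uqcrb*) to 1.96 (*Ndufb2*), while nearly all ticks and triangles lie close to 0.

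In complex I, the NADH dehydrogenase, the nuclear-encoded subunits of the catalytic core that are named here were all higher in the E18.5 mutant. Of all genes, 69.5% were higher. The core subunits carry the flavin and the iron-sulfur clusters that take electrons from NADH to quinone. *Ndufv1*, which binds NADH and the flavin, had 40.6, 40.5, 15.1 and 43.1 FPKM, and its E18.5 genotype ratio of 1.51 was the highest of these. *Ndufs3* followed with 49.6, 49.8, 24.97 and 53.1 FPKM and a ratio of 1.09. The E18.5 ratios of *Ndufs8*, *Ndufs7* and *Ndufs1* were 0.93, 0.68 and 0.67. With the length and GC trends subtracted *Ndufs7* turned to -0.20 and *Ndufs8* fell to 0.15, while the ratios of the other named core subunits stayed above 0. *Ndufv2*, partner of *Ndufv1* in the NADH-binding part, had 49.8, 47.3, 40.0 and 55.3 FPKM and the lowest ratio of these, 0.47. The 30 genes of complex I outside the core had a median ratio of 0.70, with 23 higher and 7 lower, beside the 69.5% of all genes.

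Among those accessory subunits *Ndufb2*, a small protein of the membrane arm, had the highest E18.5 genotype ratio of all 81 genes. Its FPKM was 50.3, 47.3, 17.2 and 66.9, a ratio of 1.96. *Ndufa7*, *Ndufb8* and *Ndufb11* had ratios of 1.58, 1.54 and 1.51. At the other end, *Ndufa12*, an accessory subunit of the peripheral arm whose position in the deposited table was chromosome 10 from 93661753 to 93683693, had 74.2, 78.3, 154.9 and 88.5 FPKM. E18.5 wild type was thus the highest library for *Ndufa12*, and the genotype ratio of -0.81 came from that value. *Ndufs5* and *Ndufv3* were also highest in E18.5 wild type, with ratios of -0.41 each. *Ndufa4*, named after complex I but now assigned to complex IV, was the most abundant with 268.5, 243.4, 183.8 and 361.1 FPKM and had a ratio of 0.97.

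Complex II, the succinate dehydrogenase, was higher in the E18.5 mutant in all 4 genes (69.5% of all genes were higher). *Sdha*, the flavoprotein, had 51.9, 49.4, 34.3 and 52.3 FPKM and the lowest ratio of the complex, 0.61. *Sdhb*, the iron-sulfur protein and the most abundant of the 4, had 64.0, 62.8, 31.8 and 68.7 FPKM and a ratio of 1.11. The anchors *Sdhc* and *Sdhd* had ratios of 0.79 and 1.66. An estimated 86.6 reads lay behind the *Sdhd* value of E18.5 wild type, the fewest of any gene of this complex.

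Complex III, the cytochrome bc1 complex, had E18.5 genotype ratios from -1.02 to 1.59. *Uqcrfs1*, the Rieske iron-sulfur protein, had 54.997, 52.1, 19.2 and 58.0 FPKM and a genotype ratio of 1.59. *Uqcrb*, a small subunit at the quinone-binding side, had 146.7, 136.0, 354.7 and 175.2 FPKM and a ratio of -1.02. E18.5 wild type was the lowest library for *Uqcrfs1* and the highest for *Uqcrb*. The other 3 libraries ran from 52.1 to 58.0 FPKM for the first and from 136.0 to 175.2 FPKM for the second. *Uqcrb* lay on chromosome 13 from 67001556 to 67006286 in the deposited table, and 3 other annotated genes hold a transcript of at least 95% identity over at least 50% of its length, so its reads can be divided among them. *Uqcrh*, the acidic hinge protein and the most abundant of the complex, had 240.0, 231.8, 274.9 and 273.1 FPKM and a ratio of -0.01. *Uqcrq* and *Uqcr* had ratios of 1.35 and 1.31, the core proteins *Uqcrc1* and *Uqcrc2* of 0.94 and 0.58.

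Complex IV, cytochrome c oxidase, had 12 of 16 genes higher in the E18.5 mutant (69.5% of all genes), 8 of them by at least 1.5-fold (33.2%) and 4 by at least 2-fold (15.1%). *Cox4i1*, the ubiquitous form of its largest nuclear-encoded subunit, had 302.4, 302.2, 149.5 and 328.4 FPKM and a ratio of 1.13. *Cox8a* and *Cox5a* had ratios of 1.197 and 1.194, *Cox5a*, which lies at the matrix side, with 91.6, 88.7, 42.1 and 96.2 FPKM. *Cox6c*, the most abundant gene of the complex by its mean, had 240.8, 253.3, 338.0 and 321.3 FPKM and a ratio of -0.07, and *Cox5b*, *Cox6b1*, *Cox7b* and *Cox7c* had ratios between 0.15 and 0.42, of which *Cox5b* turned to -0.17 and *Cox6b1* to -0.064 with the length and GC trends subtracted. Ratios thus ranged widely within the complex. The isoforms *Cox7a1*, *Cox6b2*, *Cox8b* and *Cox4i2* had E18.5 ratios of 1.29, 0.93, -0.22 and -0.25, and the last was the lowest of the complex. With the length and GC trends subtracted these ratios were 0.72, 0.34, -0.85 and -0.97.

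Complex V showed its highest ratios in the ring that turns with the proton flow and in the smallest subunit of the catalytic head. All 5 genes of the F1 head were higher (69.5% of all genes were), with a median ratio of 0.98. *Atp5b*, the catalytic beta subunit and the most abundant gene of the complex, had 329.2, 310.1, 174.3 and 355.0 FPKM and a ratio of 1.027. *Atp5e*, the epsilon subunit, had 210.1, 229.5, 69.4 and 235.1 FPKM and a ratio of 1.76. *Atp5d*, *Atp5a1* and *Atp5c1* had ratios of 0.98, 0.72 and 0.41. The 4 genes of the peripheral stalk, which holds the head still, had a median ratio of 0.42, and 1 of them, *Atp5h*, was lower in the mutant with 207.6, 215.8, 298.1 and 233.2 FPKM and a ratio of -0.35. *Atp5h* has 3 near-identical copies by the measure given for *Uqcrb*, so its reads can be divided too. The 3 genes of the membrane part outside the ring had a median ratio of 1.00.

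The c-ring is built of many copies of subunit c, which 3 genes encode. *Atp5g1* had 82.6, 79.7, 30.6 and 91.3 FPKM, *Atp5g2* 146.6, 146.7, 46.9 and 150.6 FPKM, and *Atp5g3* 232.9, 240.8, 113.9 and 288.5 FPKM. All 3 were lowest in E18.5 wild type, by more than 2-fold, and their E18.5 genotype ratios were 1.58, 1.68 and 1.34. These genes are shown because their proteins end alike although their RNAs do not. The last 75 codons, compared between the annotated GENCODE transcripts, encode the same residue at 75 of 75 positions, while 168 of the 225 bases are the same in all 3. The last 90 coding bases before the stop codon, on the minus strand of GRCm38 in the coding sequence of the last coding exon, are given 5′ to 3′ with the 24 bases at which the genes differ in capitals; they lie at chr11:96073107-96073196 (*Atp5g1*), chr15:102663017-102663106 (*Atp5g2*) and chr2:73908596-73908685 (*Atp5g3*).
Atp5g1: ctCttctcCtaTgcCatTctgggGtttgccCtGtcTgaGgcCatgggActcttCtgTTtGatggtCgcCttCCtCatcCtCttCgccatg
Atp5g2: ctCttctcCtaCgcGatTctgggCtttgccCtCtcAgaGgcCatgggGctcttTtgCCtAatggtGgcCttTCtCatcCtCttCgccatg
Atp5g3: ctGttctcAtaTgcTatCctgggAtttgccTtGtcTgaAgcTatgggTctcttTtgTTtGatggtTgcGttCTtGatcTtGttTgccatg
The transcript of *Atp5g3* has a GC content of 50.4%, those of *Atp5g1* and *Atp5g2* of 56.4% and 56.7%. The first is also the most abundant in each library and has the lowest E18.5 ratio of the 3. Near-identical copies, by the measure given for *Uqcrb*, numbered 1 for *Atp5g1*, 2 for *Atp5g2* and 0 for *Atp5g3*.

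Between E16.5 and E18.5 the wild type libraries differed in the opposite direction to the E18.5 genotypes, with which they share E18.5 wild type. Of the 81 genes, 17 were higher at E18.5 and 64 lower, where 27.7% of all genes were higher, and the median log2 ratio was -0.62 against -0.35 for all genes. At least 2-fold falls were seen in 21 genes (16.8% of all genes) and at least 2-fold rises in 2, *Uqcrb* with a ratio of 1.27 and *Ndufa12* with 1.06 (2.7%). With the median of all genes taken off the split was 26 higher and 55 lower. With the length and GC trends subtracted it was 34 and 47, and then 7 genes were at least 2-fold higher and 2 at least 2-fold lower. No shares of all genes were computed in these settings.

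At E16.5, oxidative phosphorylation genes had nearly the same FPKM in both genotypes. The ratio stayed within 1.2-fold in 78 of the 81 genes, where 84.3% of all genes did. In the mutant 33 genes were higher and 48 lower (54.2% of all genes were higher), and the median log2 ratio was -0.01 against 0.01 for all genes. Complex medians lay between -0.05 (complex III) and about 0 (complex I). A rise of at least 1.5-fold was seen in 0 genes (1.44% of all genes) and a fall of that size in 1, *Cox8b* (2.72%). The direction of such small ratios depends on scaling. With column sums made equal 5 genes were higher and 76 lower, with a median of -0.12 and no share of all genes computed.

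*Cox8b*, the heart and skeletal muscle form of subunit VIII, lay on chromosome 7 from 148084840 to 148086345 in the deposited table. It had 2.93, 1.08, 2.54 and 2.17 FPKM, so E16.5 Tbx18Gfp/Gfp was the lowest library and the other 3 ran from 2.17 to 2.93 FPKM, and its E16.5 ratio was -1.44. About 27 and 9 reads stood behind the E16.5 values, and the wild type was 2.61 times the mutant by these reads, with an interval of 1.19 to 6.31 (95%, exact binomial, counting error only). The ubiquitous form *Cox8a* had 234.3, 214.7, 121.1 and 277.7 FPKM and did not share the E16.5 difference. All 12 skeletal muscle markers were lower in the E16.5 mutant, with a median ratio of -1.19, and their summed FPKM was 0.232%, 0.0930%, 0.160% and 0.184% of each column. Their part in the *Cox8b* ratio was not tested. The other 2 genes beyond 1.2-fold were *Cox7a2*, with a ratio of -0.43, and *Cox7a1*, with -0.32.

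From E16.5 to E18.5 within Tbx18Gfp/Gfp, oxidative phosphorylation genes were slightly higher at the later stage with few exceptions. This comparison shares a library with each genotype comparison and none with E18.5 wild type. Of the 81 genes 75 were higher at E18.5 and 6 lower, where 35.3% of all genes were higher. The median log2 ratio was 0.15, against -0.06 for all genes, and 80 of the 81 lay above the median of all genes. Complex medians were 0.14, 0.14, 0.16, 0.22 and 0.13 from complex I to V. With column sums made equal, 72 were higher, and the share of all genes was not computed in that setting. The changes were small: 63 of the 81 stayed within 1.2-fold (79.9% of all genes), 4 rose by at least 1.5-fold (3% of all genes), 3 of these by at least 2-fold (1.35%), and 0 fell by 1.5-fold (1.68%). The lowest ratio, -0.12, was that of *Atp5sl*, which is not a subunit. Smooth muscle markers were higher at E18.5 in this genotype in 8 of 8, with a median ratio of 2.53, and their summed FPKM was 0.124% and 0.725% of the 2 columns. Their part in the ratios of the oxidative phosphorylation genes was not tested.

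**Figure D3:**
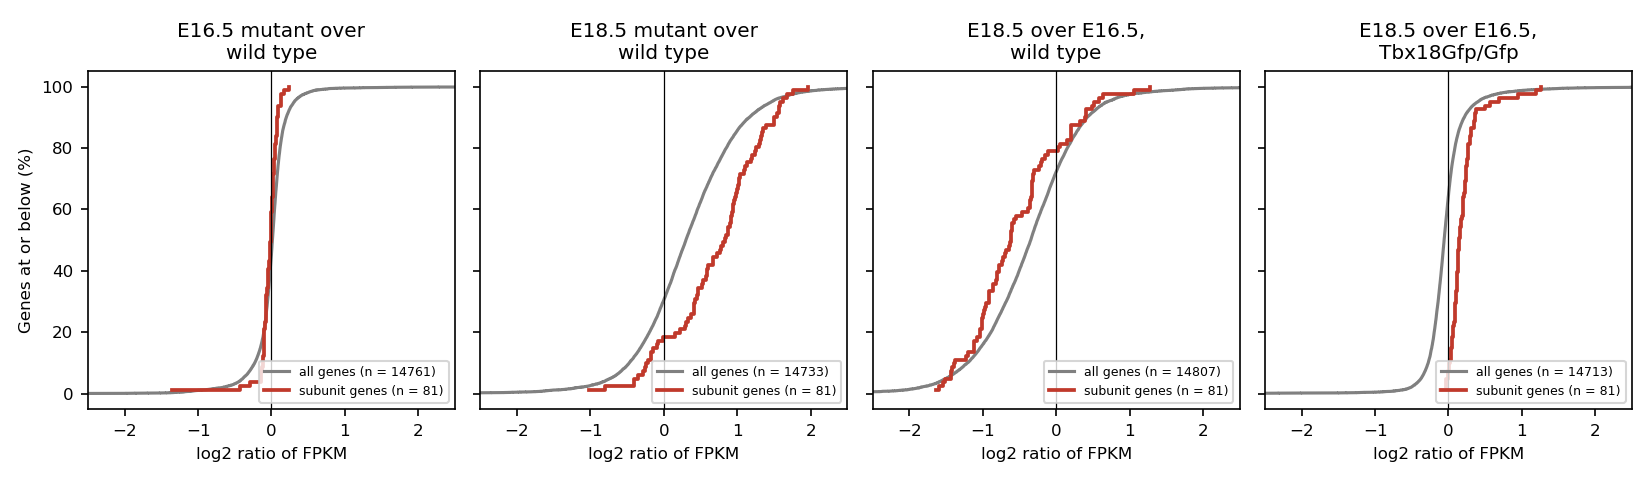
Cumulative share of genes (%) at or below a log2 ratio of FPKM, with a pseudocount of 0.1, for all genes (grey) and the 81 oxidative phosphorylation genes (red) in the 4 comparisons. The medians of the red lines are -0.01, 0.83, -0.62 and 0.15, those of the grey lines 0.01, 0.30, -0.35 and -0.06, and the last panel, which leaves out E18.5 wild type, shows the narrow shift within Tbx18Gfp/Gfp.

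The 4 genes with the largest rise in the mutant between stages were *Ndufa4l2*, *Cox7a1*, *Cox8b* and *Cox7a2*. *Ndufa4l2*, a paralogue of *Ndufa4* that is induced in low oxygen and is known from mural cells of vessels, had 20.0, 21.9, 22.1 and 52.8 FPKM. By FPKM as deposited, E18.5 Tbx18Gfp/Gfp alone was thus high, and the stage ratio was 1.27. With the length and GC trends subtracted, the stage ratio was 1.06 in wild type and 1.37 in Tbx18Gfp/Gfp. The E18.5 genotype ratio, 1.26 before, was then 0.41. *Ndufa4* itself had a stage ratio of 0.57, and *Ndufa4l2* made up 6.92%, 8.27%, 10.7% and 12.8% of the FPKM of both. *Cox7a1*, the heart and muscle form of subunit VIIa, had 2.05, 1.65, 1.58 and 3.88 FPKM from about 24, 16, 8 and 36 reads, and the stage ratio by reads was 2.39-fold with an interval of 1.29 to 4.62. *Cox7a2*, its form in most other tissues, had 83.1, 61.5, 54.3 and 99.2 FPKM and a stage ratio of 0.69, with E16.5 Tbx18Gfp/Gfp as the denominator here and the numerator of its E16.5 ratio of -0.43. The stage ratio of *Cox8b* by reads was 2.01-fold with an interval of 0.847 to 5.11, which includes 1. Skeletal muscle markers were higher at E18.5 in this genotype in 8 of the 11 above 1 FPKM, with a median ratio of 0.13, beside the rise of the smooth muscle markers given above. The part of either in the isoform ratios was not tested.

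**Figure D4:**
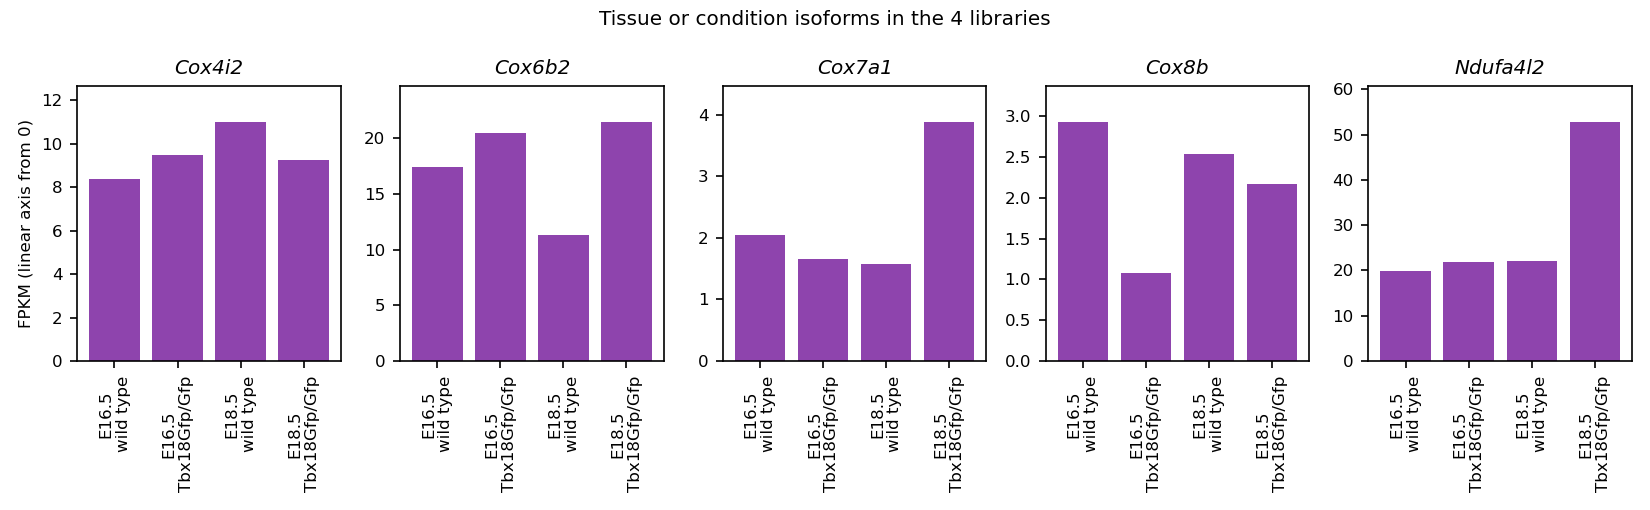
FPKM of 5 tissue or condition isoforms in the 4 libraries (linear axes from 0, 1 bar per library). *Ndufa4l2* and *Cox7a1* are highest in E18.5 Tbx18Gfp/Gfp at 52.8 and 3.88 FPKM, and *Cox8b* is lowest in E16.5 Tbx18Gfp/Gfp at 1.08 FPKM. *Cox4i2* varies least relative to its own level, from 8.38 to 11.01 FPKM as deposited.

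In FPKM as deposited, the remaining isoforms with a ratio differed less. The wild type stage ratio of *Cox4i2*, 0.39 as deposited, was 1.16 with the length and GC trends subtracted. *Cox4i2*, the low-oxygen and lung form of subunit IV, had 8.38, 9.48, 11.01 and 9.26 FPKM and made up 2.70%, 3.04%, 6.86% and 2.74% of the FPKM of *Cox4i2* and *Cox4i1*, the third share standing beside the low *Cox4i1* of E18.5 wild type. *Cox6b2*, described as a testis form, had 17.5, 20.5, 11.3 and 21.5 FPKM. The testis forms *Cox7b2* and *Cox8c* were at most 0.314 and 0.0597 FPKM, and no ratio is given for them. Of 5 markers of brown fat, a tissue rich in these complexes, *Ucp1*, the uncoupling protein that defines it, was at 0.0109 to 0.0667 FPKM, and 3 were above 1 FPKM in every library. These were *Fabp4*, also known from white fat and vessels, with 32.3, 20.3, 94.7 and 98.4 FPKM, *Cidea* with 1.70 to 2.17 FPKM, and *Ppargc1a* with 1.01 to 1.66 FPKM.

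A total of 3 symbols matched the rule although their products are not subunits. *Cox4nb*, now named *Emc8* and part of a membrane protein insertion complex, had 9.15, 9.27, 5.31 and 9.07 FPKM. *Atp5s* had 5.87, 5.56, 6.75 and 5.54 FPKM and *Atp5sl* 6.68, 7.06, 5.30 and 6.52 FPKM. None of these 3 was higher at E18.5 than at E16.5 in the mutant, with ratios of -0.03, -0.01 and -0.12, and without them 75 of 78 genes were higher there.

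Genes outside the rule that work with the complexes were taken from lists. Subunits, a carrier and an inhibitor that the symbol rule missed were divided at E18.5: *Cyc1*, the cytochrome c1 of complex III, had 60.5, 57.7, 15.4 and 62.9 FPKM and a genotype ratio of 2.03, whereas *Atpif1*, the inhibitor of ATP synthase, had 222.6, 208.6, 602.8 and 231.2 FPKM and a ratio of -1.38. *Usmg5*, a small ATP synthase subunit, had a ratio of -0.72, *Ndufab1*, the acyl carrier protein of complex I, one of 1.027, and *Cycs*, cytochrome c, one of -0.06. All 5 were higher at E18.5 than at E16.5 within Tbx18Gfp/Gfp. Of 51 assembly factors listed, 32 were found. In the E18.5 genotype comparison 26 of them were higher with a median of 0.54 (69.5% of all genes were higher). Within Tbx18Gfp/Gfp between stages 11 were higher and 21 lower, with a median of -0.03 (35.3% of all genes were higher, a share near theirs). Beside the same shares of all genes, the 13 citric acid cycle enzymes had medians of 0.65 and 0.12 in these comparisons, with 11 and 12 higher, and the 15 other mitochondrial membrane and matrix genes 0.74 and 0.07, with 14 and 12 higher.

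Of 12 regulators of mitochondrial genes, 11 reached 1 FPKM. In the E18.5 mutant 7 of these were higher and 4 lower, near the 69.5% higher among all genes, with a median of 0.03 against 0.30. *Esrra*, the estrogen-related receptor alpha, had 7.42, 7.04, 1.27 and 6.88 FPKM and a ratio of 2.43, which rested on the low E18.5 wild type value. *Nrf1*, the nuclear respiratory factor, had 10.9, 11.9, 6.24 and 10.1 FPKM and a ratio of 0.70. *Gabpb1* had a ratio of -0.66 and *Ppargc1a*, a coactivator of these factors that stayed under 2 FPKM, one of -0.68. The ratios of *Tfam*, *Tfb1m*, *Tfb2m*, *Pprc1*, *Gabpa*, *Esrrg* and *Yy1* lay between -0.27 and 0.48.

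By their medians, the oxidative phosphorylation genes had shorter and slightly more GC-rich RNA than all genes. The median transcript length was 732 bases against 2571 bases for all genes, and the median GC content 51.9% against 50.7%. Over 13012 genes the E18.5 genotype ratio and GC content had a Spearman correlation of 0.43, and over the 81 oxidative phosphorylation genes one of 0.26. The points share both libraries. In bins of GC content the oxidative phosphorylation genes had median ratios of 0.52 (under 45%, 8 genes), 0.73 (45 to 50%, 16 genes), 0.86 (50 to 55%, 32 genes) and 0.94 (55% and over, 25 genes), beside 0.01, 0.14, 0.38 and 0.69 for all genes in the same bins. By its median, each bin of oxidative phosphorylation genes lay above its bin of all genes, by the least in the last. By direction this did not hold in the last bin, where 20 of 25 were higher against 2974 of 3462 of all genes, a larger share. In the other bins the share that was higher was larger among the oxidative phosphorylation genes. *Uqcrb* lay in the lowest bin and *Ndufa12* in the third. The 11 genes with a near-identical copy elsewhere had a median ratio of 0.88 with 7 of 11 higher. The 70 without one had 0.80 with 59 of 70 higher, where 69.5% of all genes were higher.

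**Figure D5:**
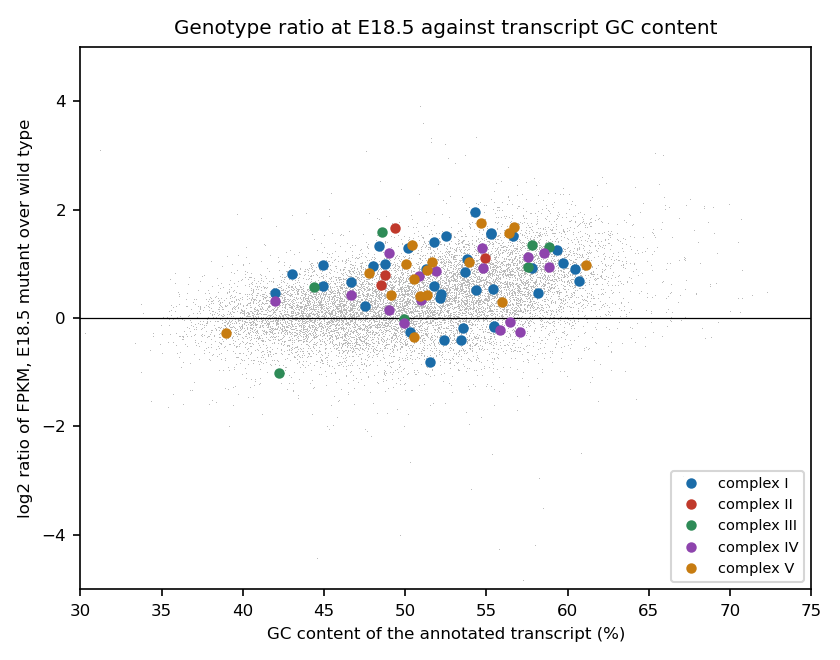
Log2 ratio of FPKM, E18.5 Tbx18Gfp/Gfp over wild type, against the GC content (%) of the annotated transcript. Grey points are genes that reached 1 FPKM in both of these libraries, and coloured points the oxidative phosphorylation genes by complex. Both rise with GC content, with Spearman correlations of 0.43 over 13012 genes and 0.26 over 81.

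Promoters of 68 of the 83 genes were matched by symbol in RefSeq on GRCm38.p6, as windows from 250 bases before to 50 bases after the gene start, and searched on both strands. The letters GCGCANGCG, those of the nuclear respiratory factor NRF1, were present in 20 of the 68 (29.4%). The share was 7.03% among all 27025 genes with a window, which were not chosen by their expression in UGS. CCGGAAG, which ETS factors such as GABP bind, was present in 16 (23.5%) against 9.93%, and AAGATGGCG, those of YY1, in 8 (11.8%) against 1.64%. A match is a description of letters and no evidence of binding. The stretches around the NRF1 letters are shown for the most abundant gene of each complex that had a match with room for the flanks, none being shown for complex III, 5′ to 3′ on the strand of the gene. Capitals mark every base of a match on either strand, so that in *Cox6a1* and *Atp5k*, where a match on each strand overlaps the other, they run 1 base past the first match, and each stretch reaches 25 bases to either side of its first match. They lie at chr16:37654526-37654584 (*Ndufb4*), chr13:74350305-74350363 (*Sdha*), chr5:115349087-115349145 (*Cox6a1*) and chr5:108434416-108434474 (*Atp5k*) on GRCm38.p6, all on the minus strand, with the first match beginning 191, 98, 162 and 50 bases before the gene start.
Ndufb4: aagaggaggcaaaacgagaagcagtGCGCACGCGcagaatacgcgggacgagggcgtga
Sdha: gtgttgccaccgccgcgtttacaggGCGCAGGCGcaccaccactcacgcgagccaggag
Cox6a1: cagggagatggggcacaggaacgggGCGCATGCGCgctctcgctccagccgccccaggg
Atp5k: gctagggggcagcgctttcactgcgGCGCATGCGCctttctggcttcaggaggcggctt
At E18.5, 69.5% of all genes were higher in the mutant. The 20 genes with the NRF1 letters had a median genotype ratio of 0.56, with 14 higher, near that share. The 47 genes above 1 FPKM whose window lacked these letters had a median of 0.93, with 41 higher. The 16 with the ETS letters had a median of 1.027, with 14 higher, and the 51 without them 0.68, with 41 higher. *Ndufb4*, *Sdha*, *Cox6a1* and *Atp5k* had ratios of 0.45, 0.61, 0.94 and 1.032, the first of which turned to -0.035 with the length and GC trends subtracted.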

How the data were processed

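Whole UGS of 4 groups was profiled by RNA-Seq, with 1 library of RNA pooled from 3 embryos in each. The authors prepared stranded mRNA libraries, sequenced single-end reads, aligned them with Tophat (2.1.0) at default options and estimated expression with Cufflinks (2.2.1). The submitters' processing notes also name CASAVA (1.8.2) and Trimmomatic (0.30). The deposited values are FPKM, with 1 column per library, and no further scaling between libraries is stated. The genome build of the table is not given in the sources used here, and its positions are not those of GRCm38. Strand use in counting is not stated.

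Groups were taken from the genotype and stage labels. Ratios were formed where one library or the other reached 1 FPKM, without a pseudocount for single genes and counts at 2-fold and 1.5-fold, and with a pseudocount of 0.1 for medians of lists. With 1 library per group no test was possible. The genes and lists were chosen with earlier results of these data known. The genes named with values are, per complex, the most abundant by mean FPKM and those with the highest and lowest E18.5 genotype ratio; every gene at 1.5-fold between genotypes at E16.5 or at 1.5-fold lower in the E18.5 mutant; the isoforms, the symbols that are not subunits, the complex I core, the c-ring, the F1 head and the regulators. Other genes were named after their values were seen. The values of 1 gene are not reported here.

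Depth was estimated from 12 to 22 olfactory receptor genes per library whose FPKM is that of 1 read. Reads behind a gene are estimates, and intervals on them (95%, exact binomial) cover counting error only, with no spread between embryos. Transcript length and GC content came from GENCODE on GRCm38 by symbol, for 23079 rows and all 83 genes. Near-identical copies were sought with BLAST (2.17.0), promoters and gene starts came from RefSeq, and the lowess trend on length and then GC content used a span of 0.3. The ratios, the counts at 2-fold and the trend subtraction were checked on simulated libraries whose changes were known. The other calculations were not checked in this way. Alternatives were column sums made equal, centring on the median of all genes, upper quartile scaling, the trend subtracted, other FPKM filters and pseudocounts, and the isoforms or the symbols that are not subunits left out. Shares of all genes were computed for the deposited values only, not in these alternatives. The software was statsmodels (0.14.6), scipy (1.17.1), pandas (2.3.3), numpy (2.4.6) and matplotlib (3.10.9) on Python (3.11.15).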

Additional observations from a re-analysis of the deposited data

Results flagged for a closer look

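The stage difference went in opposite directions in the 2 genotypes. The median log2 ratio of E18.5 over E16.5 over the 81 oxidative phosphorylation genes was -0.62 in wild type and 0.15 in Tbx18Gfp/Gfp. The same held in each complex, with medians of -0.60 and 0.14 (complex I), -0.82 and 0.14 (complex II), -1.002 and 0.16 (complex III), -0.28 and 0.22 (complex IV) and -0.78 and 0.13 (complex V). For complex IV the wild type median turned to between 0.0013 and 0.053 with column sums made equal, after centring on the all-gene median, with upper quartile scaling and with the length and GC trend subtracted, so the opposite direction was lost there. *Cox7a2* was the one gene at 1.5-fold or more in both directions, with a stage ratio of -0.61 in wild type and 0.69 in Tbx18Gfp/Gfp. These became -0.28 and 0.75 with the all-gene median taken off, and -0.18 and 0.72 with the length and GC trends subtracted. The wild type fall was thus under 1.5-fold in both settings. With 1 library per group these differences between genotypes were not tested, and the wild type values rest on the E18.5 wild type library that stood apart.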

How the results depend on the processing

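No paired analysis was possible because each group had 1 library, which also left no replicate to leave out. The medians of the 81 genes are values without a test, and a move of 0.1 or more on the log2 scale, or of over 1.5 times in a count, is given here. At E18.5 the genotype median of 0.83 became 0.41 with column sums made equal, 0.55 after centring on the all-gene median, 0.53 with upper quartile scaling and 0.38 with the length and GC trend subtracted. The wild type stage median of -0.62 became -0.33, -0.29, -0.28 and -0.19 in the same order, and the E16.5 genotype median of -0.01 became -0.12 with column sums made equal. The median of the mutant stage comparison stayed between 0.12 and 0.21 in every alternative. Genes at 2-fold or more numbered 28 between genotypes at E18.5, and 12 with equal sums, 17 with upper quartile scaling and 8 with the trend subtracted. Between wild type stages the 23 such genes became 11 with each of the first 3 scalings and 9 with the trend subtracted. The single such gene at E16.5 became 2 with no FPKM filter and 0 at a filter of 5 FPKM or without the isoforms, and the 3 in the mutant stage comparison became 1 at that filter and 0 without the isoforms. The complex IV median between wild type stages, -0.28, turned to 0.0013 with equal sums, 0.053 centred, 0.0505 with upper quartile scaling and 0.0197 with the trend subtracted. The cause of these moves was not tested. Low read numbers limit *Cox7a1* and *Cox8b*, and 1 pooled library per group limits every ratio.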
